A study of Homo sapiens with 6 samples.

Results

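The genes described here encode the receptors, the β-catenin destruction complex, the nuclear partners and a few targets of Wnt signalling. They were chosen by symbol: 33 genes listed by name and every Frizzled gene (FZD followed by a digit), of which 10 were found. All 43 were measured, among 15894 genes in all. The cells were RKO, a human colon carcinoma cell line. The shCIRC group carried a short hairpin RNA against the circular RNA hsa_circ_0064559, and the shEV group carried the control vector, for which the labels also give a nonsense hairpin. Both groups were grown in the same medium and transfected with the same reagent, and per the study's methods the cells were kept until stably transfected, with a minimum share of transfected cells that did not cover every cell. RNA of 3 samples of each group was hybridized to Affymetrix PrimeView arrays, which measure mRNA with sets of short probes (probe sets). Nothing in the labels says that the 3 samples of a group were separate cultures. The p-values therefore rest on the spread among these arrays, which may be no more than technical.

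The hairpins are shown because they define the groups, and the design sets 1 hairpin against 1 control. They are written 5′ to 3′ as the labels give them.
shCIRC hairpin: tttattatagcctgccacagc
shEV nonsense hairpin: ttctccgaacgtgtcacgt

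Wnt ligands are secreted lipid-modified proteins that bind a Frizzled receptor together with LRP5 or LRP6. Without ligand, a cytoplasmic complex of AXIN, APC, GSK3 and casein kinase 1 marks β-catenin for destruction. With ligand, Dishevelled proteins draw AXIN to the membrane, β-catenin builds up, enters the nucleus and joins TCF and LEF factors on target genes. In the colon this pathway maintains the stem cells of the crypt, and it is active in most colorectal tumours, commonly through mutation of APC. RKO is usually described as wild type for both APC and CTNNB1.

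The members moved in both directions. In shCIRC cells 10 of the 43 were higher (23.3%) and 14 were lower (32.6%) by limma at an adjusted p under 0.05, and 19 did not pass. Over all genes 22.8% were higher and 24.7% were lower, so the share of members that were higher lay close to the background. The larger share that were lower was not tested against it. The median log2 fold change of the members was -0.09 (all genes -0.0045), and its median size was 0.13 (all genes also 0.13). Groups did not overlap in 28 members (65.1%, against 56.0% of all genes). A fold above 1.3 was passed by 3 of the higher members, FZD3, FZD6 and WLS (all genes 7.44%), and by 4 of the lower ones, FZD8, PORCN, BTRC and CD44 (all genes 9.42%). The count of higher members fell to 5 without replicate 1 or without replicate 2 of shEV, and to 6 without replicate 3 of shCIRC.

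**Figure D1:**
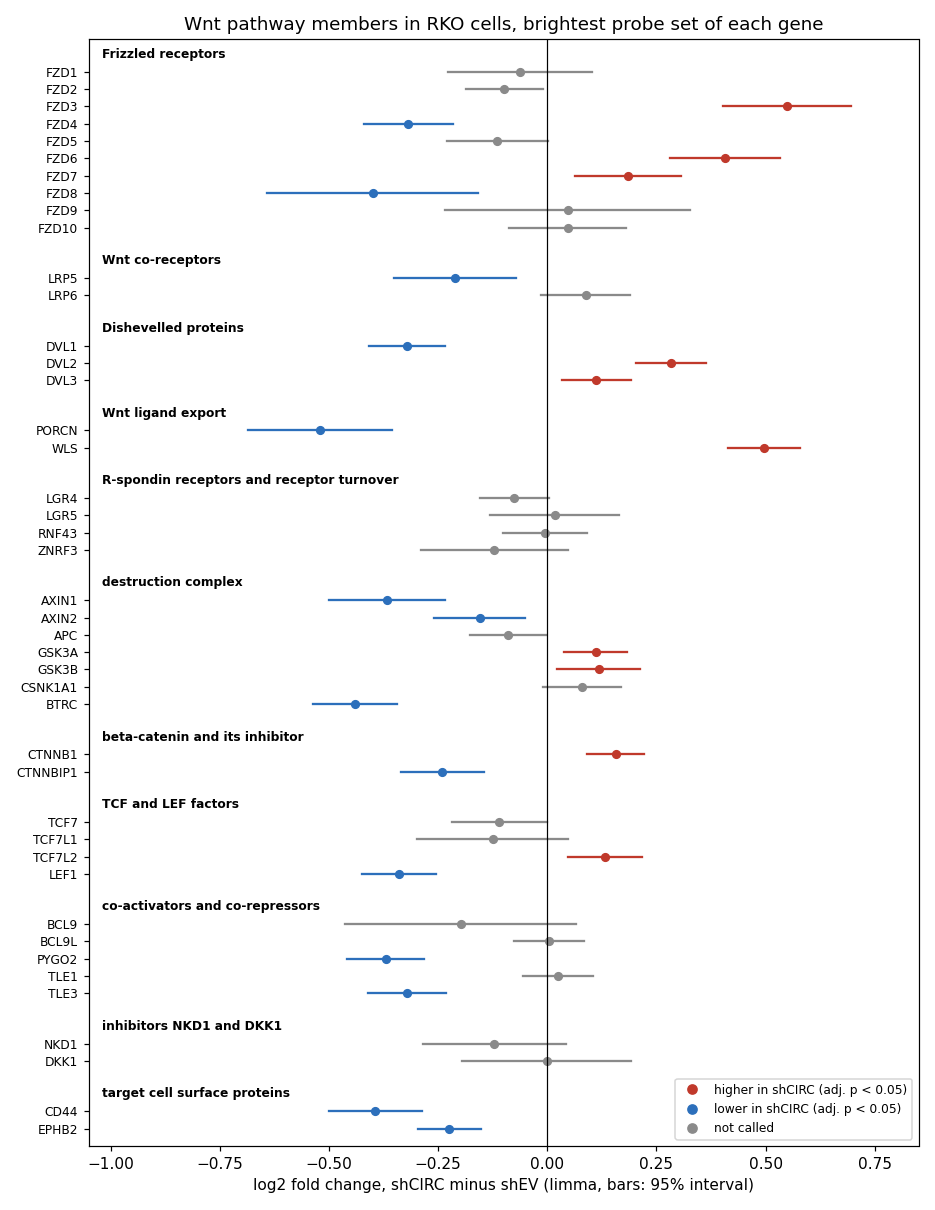
The horizontal axis is the log2 fold change of shCIRC over shEV for the brightest probe set of each of the 43 members, grouped by role; bars are 95% intervals from limma (3 arrays per group). The 10 members in red were higher, the 14 in blue lower, and the 19 in grey did not pass an adjusted p of 0.05; values run from -0.52 (PORCN) to 0.55 (FZD3).

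Array medians lay between 6.82 and 6.85 on the log2 scale. Because the authors quantile normalized the arrays, close medians do not show that the samples were alike. Across probe sets, r was 0.998 to 0.999 within groups and 0.987 to 0.988 between them. Of 8 colon epithelial markers 5 were measured, and their mean log2 signal was 8.30 to 8.35 in shEV and 8.25 to 8.31 in shCIRC. EPCAM, an epithelial adhesion protein (log2 fold change -0.46), and KRT18, a keratin (-0.30), were lower, while its partner KRT8 was higher (0.53). CDH1, KRT20 and VIL1 were not analysed here. Markers of fibroblasts (3 of 5 measured), leukocytes (2 of 5) and endothelium (4 of 4) had mean log2 signals of 5.41 to 5.81 on every array, and none was called. The 3′ minus 5′ signal of GAPDH, a measure of RNA integrity, was -0.16 ± 0.02 in shEV and -0.30 ± 0.02 in shCIRC on the log2 scale (SD, n = 3), and that of ACTB was 0.13 ± 0.02 and -0.01 ± 0.03. The part of this shift in the results for single probe sets was not tested. In cultures measured as a whole, fewer cells with a transcript and less of it per cell cannot be told apart.

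Frizzled receptors, which bind Wnt through their extracellular domain, were split: 3 were higher, 2 lower and 5 not called. FZD3, known best from axon guidance and planar polarity, had log2 signals of 6.97, 6.89 and 7.05 in shEV and 7.53, 7.42 and 7.61 in shCIRC. Every shCIRC array lay above every shEV array, with a log2 fold change of 0.55 (1.46-fold, SE 0.061, limma adjusted p = 0.00035). All 3 FZD3 probe sets were higher, by 0.32 to 0.73. FZD6, a receptor also tied to planar polarity, gave 11.12, 11.03 and 11.09 in shEV and 11.54, 11.38 and 11.53 in shCIRC. The groups again did not overlap, with a log2 fold change of 0.41 (1.33-fold, SE 0.053, limma adjusted p = 0.00074), and the other FZD6 probe set was higher by 0.61. FZD7, described as a Wnt receptor of intestinal stem cells, was higher by a smaller 0.19 (SE 0.051, limma adjusted p = 0.021). A further FZD7 probe set gave 0.20 and the third 0.013. The FZD7 call was lost without replicate 1 or replicate 2 of shEV (adjusted p up to 0.072).

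FZD8 and FZD4 went the other way. FZD8, the Frizzled whose ligand-binding domain from mouse has been crystallised with a Wnt, had log2 signals of 7.00, 6.98 and 6.91 in shEV and 6.32, 6.64 and 6.73 in shCIRC. All shCIRC arrays were below all shEV arrays, and replicate 1 of shCIRC was the lowest by far. The log2 fold change was -0.40 (0.758 times, SE 0.10, limma adjusted p = 0.016), -0.28 without that array. The adjusted p was 0.050 without replicate 1 of shEV, and the other FZD8 probe set gave -0.22 and did not pass (adjusted p = 0.052 over all probe sets). FZD4, the receptor of Norrin as well as of Wnts, was 7.53 ± 0.04 in shEV and 7.21 ± 0.06 in shCIRC (SD, n = 3), a log2 fold change of -0.32 (limma adjusted p = 0.00084). A dimmer FZD4 probe set gave -0.021 and was not called.

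The remaining Frizzled genes did not pass. The log2 fold change of FZD2 was -0.099 with groups that did not overlap (95% interval -0.19 to -0.01, limma adjusted p = 0.067). For FZD5, needed in mice for the maturation of Paneth cells, it was -0.11 (adjusted p = 0.099), with 1 of its 5 probe sets lower by 0.20. FZD1 gave -0.062 (interval -0.23 to 0.10), FZD9 0.046 (-0.23 to 0.33) and FZD10 0.047 (-0.09 to 0.18).

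The co-receptors LRP5 and LRP6 pass the Wnt signal on once phosphorylated. LRP5 was lower, at 6.97 ± 0.10 in shCIRC against 7.18 ± 0.06 in shEV (log2, SD, n = 3). This log2 fold change of -0.21 had an SE of 0.058 and a limma adjusted p of 0.022, and the call was lost without replicate 1 of shEV, with an adjusted p of up to 0.073 over the left-out arrays. LRP6 did not pass on its brightest probe set (0.088, 95% interval -0.01 to 0.19). Its 2 dimmer probe sets were both lower, by 0.25 (adjusted p = 0.032 over all probe sets) and by 0.45 (0.016).

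Wnt export held the largest changes in each direction outside the Frizzled genes. PORCN is the acyltransferase of the endoplasmic reticulum that adds the lipid to Wnt proteins (chromosome X, 48367348 to 48379198, plus strand, in the deposited annotation, for which no source used here names a build). Its log2 signals were 8.52, 8.58 and 8.70 in shEV and 7.96, 8.13 and 8.16 in shCIRC. The groups were well apart, and the log2 fold change of -0.52 (0.697 times, SE 0.069, 95% interval -0.69 to -0.36, limma adjusted p = 0.00081) was the lowest of the 43 members. PORCN has 1 probe set, so no other one can be set beside it. WLS, the carrier that takes lipid-modified Wnt to the cell surface (chromosome 1, 68659532 to 68698206, minus strand), moved the opposite way. It gave 9.93, 9.96 and 10.01 in shEV and 10.49, 10.44 and 10.46 in shCIRC, with no overlap. The WLS log2 fold change was 0.50 (1.41-fold, SE 0.034, 95% interval 0.41 to 0.58, limma adjusted p = 4.3e-05). Of its 4 probe sets 3 were higher, by 0.25 to 0.50, and the fourth gave -0.013. Without any single array PORCN stayed between -0.56 and -0.46 and WLS between 0.48 and 0.52, past the threshold throughout.

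**Figure D2:**
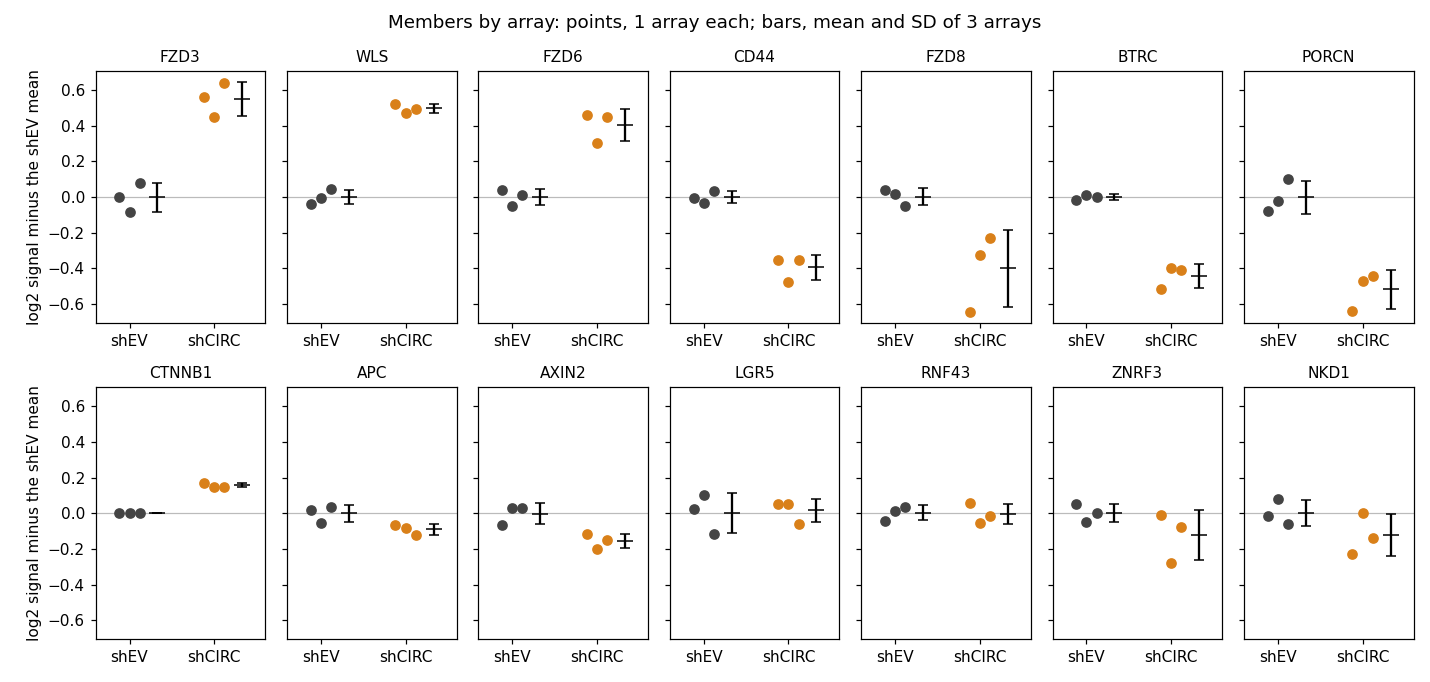
Each panel shows 1 member, with the log2 signal of every array minus the shEV mean on the vertical axis; points are arrays and bars are mean and SD of 3 arrays. In the upper row (FZD3, WLS, FZD6, CD44, FZD8, BTRC, PORCN, all past a fold of 1.3) the groups do not overlap; in the lower row CTNNB1, APC and AXIN2 are apart by 0.16 or less, and LGR5, RNF43, ZNRF3 and NKD1 overlap.

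The 3 Dishevelled proteins, which couple the receptors to AXIN, were all called but not in 1 direction. Their shares were 66.7% higher and 33.3% lower, against 22.8% and 24.7% of all genes. DVL1 was lower, at 11.07 ± 0.05 against 11.39 ± 0.02 (log2, SD, n = 3), a log2 fold change of -0.32 (SE 0.036, limma adjusted p = 0.00039) from its single probe set. DVL2 was higher, at 10.06 ± 0.02 against 9.78 ± 0.04, a log2 fold change of 0.28 (SE 0.034, limma adjusted p = 0.00048). All 4 DVL2 probe sets were higher, by 0.17 to 0.65. The direction of DVL3 (chromosome 3, 183873175 to 183891141) depended on the probe set. Its brightest one gave 0.11 (SE 0.033, limma adjusted p = 0.030), and that call was lost whichever array was left out (adjusted p 0.051 to 0.10). A DVL3 probe set of nearly the same brightness went from 8.76, 8.75 and 8.77 in shEV to 8.24, 8.31 and 8.30 in shCIRC, a log2 fold change of -0.48 (adjusted p = 3.8e-05 over all probe sets). The remaining one gave -0.17 (adjusted p = 0.026). A further DVL3 probe set held the same 6 values as the brightest and was counted with it as 1.

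Turnover of the receptors at the surface showed no call, as did 52.5% of all genes. LGR4 and LGR5 bind R-spondins, and LGR5 marks the stem cells of the intestinal crypt. RNF43 and ZNRF3 are ubiquitin ligases that remove Frizzled from the membrane until R-spondin blocks them, and both are themselves β-catenin targets. LGR5 gave 5.23, 5.31 and 5.09 in shEV and 5.26, 5.26 and 5.15 in shCIRC, a log2 fold change of 0.017 (95% interval -0.13 to 0.17, limma adjusted p = 0.85). LGR5 was dim, at brightness percentile 12.7, so an unchanged and an absent transcript cannot be told apart. RNF43 gave 7.52, 7.58 and 7.60 in shEV and 7.62, 7.51 and 7.55 in shCIRC, a difference of -0.0055 (-0.10 to 0.09, adjusted p = 0.93). In both genes the arrays of the groups overlapped, and 1 dimmer probe set of RNF43 was higher by 0.26 (adjusted p = 0.019 over all probe sets). ZNRF3 gave 6.49, 6.39 and 6.44 in shEV and 6.43, 6.16 and 6.36 in shCIRC, a log2 fold change of -0.12 (-0.29 to 0.05, adjusted p = 0.21). Replicate 2 of shCIRC was the lowest ZNRF3 array, and the others overlapped. LGR4 differed by -0.076 (adjusted p = 0.11), with groups that did not overlap.

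Scaffold, kinases and ubiquitin ligase of the destruction complex differed in direction. On the brightest probe sets the kinases GSK3A and GSK3B were higher, by little, and AXIN1, AXIN2 and BTRC lower. BTRC, the F-box protein that recognises phosphorylated β-catenin for ubiquitylation (chromosome 10, 103113823 to 103317070, plus strand), showed the largest of these changes. Its log2 signals were 8.96, 8.99 and 8.98 in shEV and 8.46, 8.58 and 8.57 in shCIRC. No array of 1 group came near the other, and the log2 fold change was -0.44 (0.737 times, SE 0.040, limma adjusted p = 0.00015). A further BTRC probe set was lower by 0.49, while the remaining 2 gave 0.03 and 0.05 and were not called. AXIN1, the limiting scaffold of the complex, was 8.22 ± 0.10 in shCIRC and 8.59 ± 0.04 in shEV (log2, SD, n = 3), a log2 fold change of -0.37 (SE 0.055, limma adjusted p = 0.0015).

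AXIN2 (chromosome 17, 63524680 to 63557766, minus strand) is both a scaffold and a widely used readout of β-catenin activity. It gave 5.24, 5.34 and 5.34 in shEV and 5.19, 5.11 and 5.16 in shCIRC. The groups lay close but did not overlap, with a log2 fold change of -0.15 (0.898 times, SE 0.043, 95% interval -0.26 to -0.05, limma adjusted p = 0.024). The call was lost without replicate 2 or 3 of either group (adjusted p up to 0.080) and under another test or a wider set of probe sets (0.055 to 0.13), while the fold change without each array was -0.19 to -0.13. The other, dimmer AXIN2 probe set was lower by 0.36 (adjusted p = 0.00048 over all probe sets). AXIN2 was dim on both. Every array lay below 5.41, the lowest mean log2 signal of the fibroblast, leukocyte and endothelium markers. How much of so dim a signal comes from the AXIN2 transcript was not tested, so the fall is not taken as a readout of β-catenin activity.

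APC, the tumour suppressor of the complex, gave 8.23, 8.16 and 8.25 in shEV and 8.15, 8.13 and 8.09 in shCIRC. Every shCIRC array lay below every shEV array, yet the log2 fold change of -0.090 did not pass (95% interval -0.18 to -0.0033, limma adjusted p = 0.085). Its other 2 probe sets were called the other way, higher by 0.25 (adjusted p = 0.0040 over all probe sets) and by 0.20 (0.012), so the arrays give APC no single direction. GSK3A and GSK3B, kinases that phosphorylate β-catenin, were higher by 0.11 (limma adjusted p = 0.021) and by 0.12 (0.048). Both calls were sensitive to single arrays and to scaling. Over the left-out arrays the adjusted p of GSK3A rose to as much as 0.073, and its call held only without replicate 1 of shCIRC. That of GSK3B was 0.060 to 0.13, and its call was lost whichever array was left out. With quantile normalization run again or cyclic loess, the limma adjusted p was 0.055 and 0.11 for GSK3A, and 0.12 and 0.15 for GSK3B. The other 2 GSK3A probe sets gave 0.082 and -0.013 and were not called. CSNK1A1, the kinase that phosphorylates β-catenin before GSK3 does, gave 0.080 on its brightest probe set and did not pass (adjusted p = 0.13). Of its 10 probe sets, 7 were higher and 1 lower, over a range of -0.31 to 0.61.

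β-catenin itself was higher. CTNNB1 (chromosome 3, 41241043 to 41281043, plus strand) gave 12.94 on each of the 3 shEV arrays and 13.11, 13.09 and 13.09 in shCIRC. The spread within each group was far below the difference, a log2 fold change of 0.16 (1.12-fold, SE 0.027, 95% interval 0.09 to 0.22, limma adjusted p = 0.0030). All 8 CTNNB1 probe sets had a positive sign (0.03 to 0.38), and 5 were called. The arrays measure mRNA, and no β-catenin protein was measured in these samples. CTNNBIP1, a small protein that blocks the binding of β-catenin to TCF, was lower: 7.96 ± 0.06 against 8.20 ± 0.02 (log2, SD, n = 3), a log2 fold change of -0.24 (SE 0.040, limma adjusted p = 0.0022). Its other 3 probe sets gave -0.086 to -0.050 and were not called.

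Among the DNA-binding partners of β-catenin, LEF1 was lower and TCF7L2 higher. LEF1, itself a target of the pathway in colon cancer cells, was 9.40 ± 0.04 in shCIRC and 9.74 ± 0.04 in shEV (log2, SD, n = 3). The log2 fold change was -0.34 (SE 0.036, limma adjusted p = 0.00028), and 7 of its 9 probe sets were lower. TCF7L2, the main TCF of the intestinal epithelium, was higher by 0.13 (SE 0.035, limma adjusted p = 0.019) on its brightest probe set. The call was lost without replicate 1 or 3 of shCIRC and without replicate 1 or 2 of shEV, with an adjusted p of up to 0.069. Of the other 6 TCF7L2 probe sets, all dimmer, 3 were lower and none higher. TCF7 gave -0.11 (adjusted p = 0.091) with 2 of 6 probe sets lower, 1 of them by 0.80 (adjusted p = 1.1e-05 over all probe sets). TCF7L1, mostly a repressor, gave -0.13 (interval -0.30 to 0.05).

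Of the cofactors, PYGO2 and TLE3 were lower. PYGO2, a coactivator that joins β-catenin through BCL9, was 9.40 ± 0.04 in shCIRC and 9.77 ± 0.04 in shEV (log2, SD, n = 3), a log2 fold change of -0.37 (SE 0.037, limma adjusted p = 0.00021). All 3 PYGO2 probe sets were lower. TLE3, a Groucho-type corepressor that β-catenin displaces, was lower by 0.32 (SE 0.037, limma adjusted p = 0.00043), with a dimmer probe set at -0.029. TLE1 gave 0.024 and BCL9L 0.0041, with intervals of -0.06 to 0.10 and -0.08 to 0.08. BCL9 gave -0.20 with a wide interval (-0.46 to 0.07).

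The feedback inhibitors did not pass, as was the case for 52.5% of all genes. NKD1, a Dishevelled-binding inhibitor induced by β-catenin, gave 7.47, 7.57 and 7.43 in shEV and 7.26, 7.49 and 7.35 in shCIRC. The groups overlapped (log2 fold change -0.12, 95% interval -0.28 to 0.04, limma adjusted p = 0.20), and 1 of its 4 probe sets was lower by 0.19. DKK1, a secreted antagonist of LRP6, gave 4.64 ± 0.14 in shEV and 4.64 ± 0.10 in shCIRC (log2, SD, n = 3), a difference of -0.0016 (interval -0.20 to 0.19). Its brightness percentile was 1.7, and at so dim a signal an unchanged and an absent transcript cannot be told apart.

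Both target proteins of the cell surface were lower (24.7% of all genes were lower). CD44, a hyaluronan receptor found on crypt stem cells (chromosome 11, 35160202 to 35253949, plus strand), gave 11.75, 11.72 and 11.79 in shEV and 11.40, 11.28 and 11.40 in shCIRC. The groups were well apart, at a log2 fold change of -0.39 (0.761 times, SE 0.045, 95% interval -0.50 to -0.29, limma adjusted p = 0.00038). Of its 10 probe sets 9 were lower. EPHB2, the receptor tyrosine kinase that positions cells along the crypt, was 8.05 ± 0.02 against 8.27 ± 0.02 (log2, SD, n = 3), a log2 fold change of -0.22 (SE 0.030, limma adjusted p = 0.00085). Of its 4 probe sets 3 were lower.

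Probe sets of the same member did not always agree. The members have 138 distinct probe sets, of which 33 were higher (23.9%, against 25.6% of all probe sets), 47 lower (34.1%, against 24.6%) and 58 not called. Several probe sets exist for 32 members. In 3 of these (9.38%, against 6.06% of all genes with several) some were higher and others lower: DVL3, CSNK1A1 and TCF7L2. Among the 20 called members with several probe sets, 13 had the same sign in all of them. In 9 members that were not called, another probe set was. Neither of these counts was set against all genes. Calls were also rarer among dim genes: 7 of the 20 members dimmer than the median gene were called (25.9% of all such genes) and 17 of the 23 brighter ones (69.1%).

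**Figure D3:**
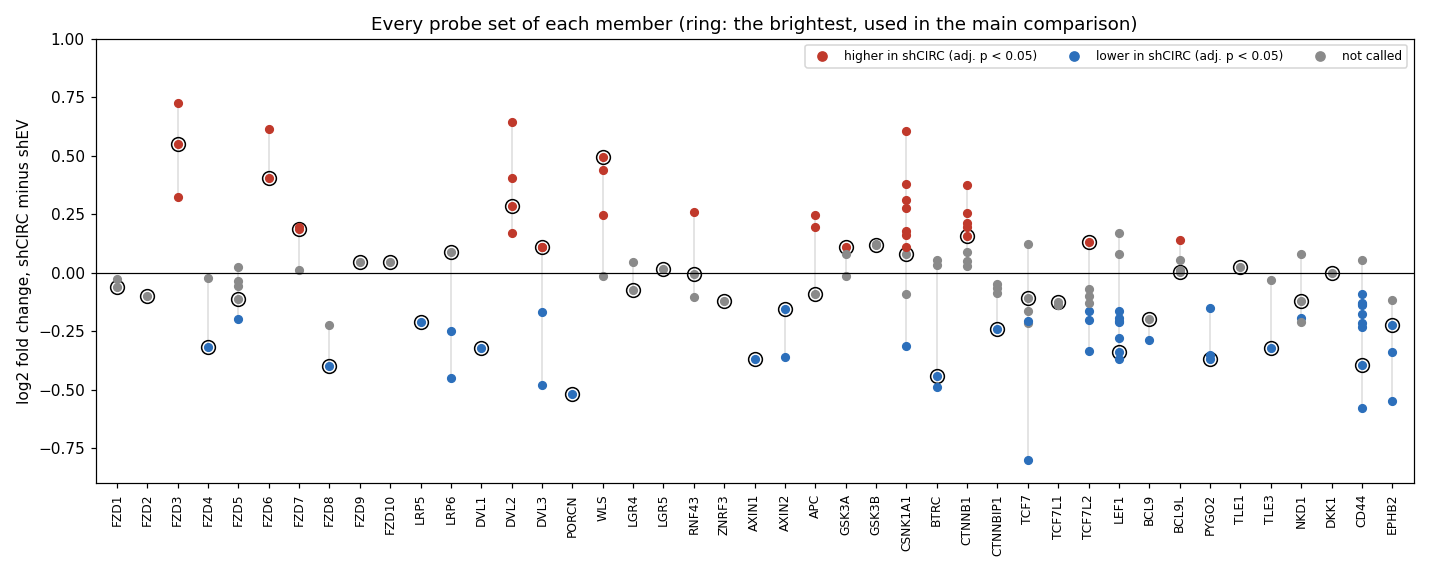
The vertical axis is the log2 fold change of shCIRC over shEV for each of the 138 distinct probe sets of the 43 members (one column per gene), coloured by call at an adjusted p of 0.05 over all probe sets, with a ring around the brightest. The sets of FZD3, FZD6, DVL2, AXIN2 and PYGO2 were all called the same way, whereas DVL3, CSNK1A1 and TCF7L2 hold both red and blue points; GSK3B is grey here at an adjusted p of 0.051 and was 0.048 over genes.

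The promoters of the members were searched for 1 form of the core bound by TCF and LEF, CTTTGA on either strand (TCAAAG on the other). The form CTTTGT was neither searched nor marked. RefSeq promoters of GRCh38.p14, from 250 bases before to 50 after the start, were given for 31 members with 42 starts. CTTTGA was present in 3 of these (7.1%, against 12.9% of 35116 promoters): those of DKK1, PORCN and, 18 bases after its start, CSNK1A1. The stretches before the start are shown because PORCN was the lowest of the members and DKK1, a very dim gene here, was not called. Only CTTTGA and TCAAAG are in capitals. A match is a description of the letters only. The DKK1 stretch is chr10:52314102-52314221 (plus strand, -179 to -60 from the start), and that of PORCN is chrX:48509745-48509783 (plus strand, -39 to -1 from 1 of its 2 starts).
DKK1: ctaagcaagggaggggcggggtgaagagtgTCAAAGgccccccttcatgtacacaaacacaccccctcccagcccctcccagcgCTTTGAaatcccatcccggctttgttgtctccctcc
PORCN: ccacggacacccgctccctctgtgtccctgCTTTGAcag

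Other genes of the pathway gave unequal counts, and no list was tested against all genes (22.8% higher, 24.7% lower). Brightness also matters for such counts: 69.1% of all genes brighter than the median were called, and 25.9% of dimmer ones. Of 16 Wnt ligands measured, none was higher and 1 was lower (6.2%), WNT4 (log2 fold change -0.23, limma adjusted p = 0.012). All of these ligands were dimmer than the median gene (brightness percentiles 2.4 to 38.9), so the absence of a call does not show stable expression. Of 13 Wnt inhibitors, DKK receptors and R-spondins, none was higher and 2 were lower. Both are membrane proteins: TRABD2A, a protease that cuts Wnt proteins (-0.47, adjusted p = 7.1e-05), and KREMEN1, a receptor of DKK proteins (-0.13, adjusted p = 0.017). The 3 probe sets of KREMEN1 ran from -0.16 to 0.19 and the 2 of WNT4 from -0.23 to -0.0036. Of 26 other cytoplasmic proteins of the pathway, 14 were higher (53.8%) and 2 lower (7.7%), with a median of 0.11. These included CSNK1G1, a membrane casein kinase that phosphorylates LRP6 (0.51), and PPP2R5A and PPP2CA, subunits of the phosphatase PP2A (0.42 and 0.40). NKD2, a relative of NKD1, was lower (-0.55, adjusted p = 0.0011).

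Nuclear proteins outside the members were evenly split, with 5 of 17 higher and 5 lower (29.4% each, against 22.8% and 24.7% of all genes). TBL1XR1, an exchange factor for corepressors, was higher by 0.71 on the log2 scale, CDC73, a subunit of the PAF1 complex, by 0.56, and RUVBL1, an ATPase that binds β-catenin, by 0.46. JADE1, a ubiquitin ligase reported for β-catenin, was lower by 0.41. All 4 had a limma adjusted p of 8.1e-05 or less.

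Reported targets of β-catenin and TCF other than the members were called in 1 direction. Of 23 measured, 10 were lower (43.5%) and none higher on their brightest probe set, with a median of -0.080. Over all genes 24.7% were lower and 22.8% higher, and the difference from these shares was not tested. FOSL1, an AP-1 subunit, had the largest change, from 11.26 ± 0.06 in shEV to 9.82 ± 0.02 in shCIRC (log2, SD, n = 3), a log2 fold change of -1.44 (limma adjusted p = 2.7e-06). SP5, a transcription factor reported to follow Wnt activity, was lower by 0.47 (limma adjusted p = 0.0071), from 7.18 ± 0.12 in shEV to 6.71 ± 0.18 in shCIRC. SP5 has 1 probe set here and was dimmer than the median gene (brightness percentile 37.2), so its fall is not taken as a readout of Wnt activity. MET, the receptor of hepatocyte growth factor, was lower by 0.42 (limma adjusted p = 5.1e-05). BIRC5, an inhibitor of apoptosis that is also tied to mitosis, was lower by 0.28 (0.00029). Probe sets differed widely, from -1.44 to -0.47 over the 6 of FOSL1, from -0.87 to -0.039 over the 6 of MET and from -1.09 to 0.029 over the 11 of BIRC5. MYC and CCND1, named after their values were seen because they are the best known targets, were lower by 0.14 (adjusted p = 0.012) and by 0.11 (0.018) on the brightest probe set. MYC has no other one here, but the 4 of CCND1 ran from -0.11 to 0.29, so its direction depended on the probe set.

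**Figure D4:**
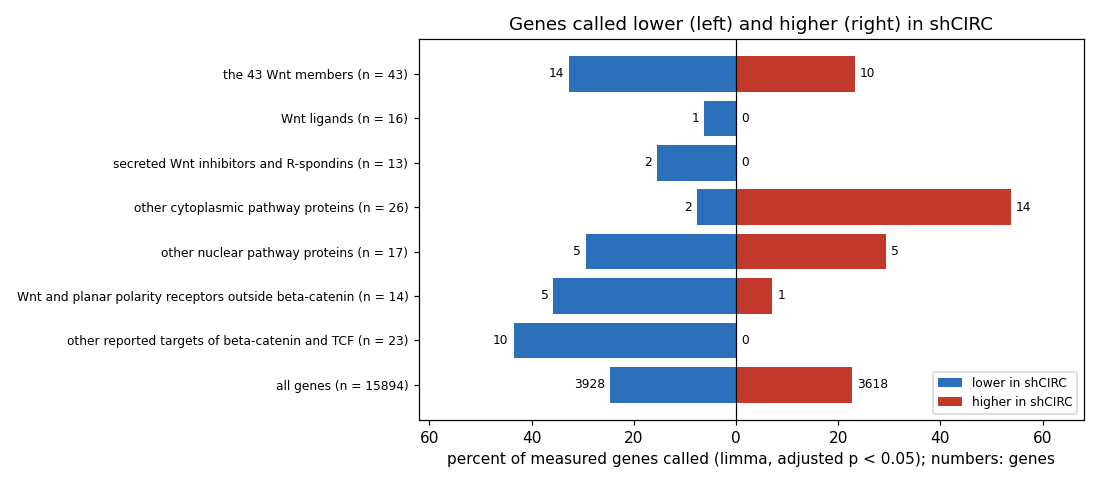
Bars give the percent of measured genes called lower (left) and higher (right) in shCIRC by limma at an adjusted p of 0.05, for the 43 members, 6 other lists of the pathway and all 15894 genes; numbers beside the bars are genes. The members (14 lower, 10 higher) were called in both directions, as were all genes (24.7% lower, 22.8% higher). The other cytoplasmic proteins gave 14 higher against 2 lower and the other reported targets 10 lower against 0 higher. The list labelled as secreted also holds membrane proteins, among them TRABD2A and KREMEN1.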

How the data were processed

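The authors hybridized RNA of 3 shEV and 3 shCIRC samples of RKO cells, with 6 µg of total RNA per array, and deposited log2 signals after quantile normalization between the arrays. The submitters' processing notes name GCOS 1.4, and no source used here gives the background correction or the summarisation. The deposited annotated table also holds the authors' own p-values, FDR and fold changes, which were not used. Of its 39269 probe sets, 37458 name 1 gene. Those naming several (1539) or none (199), and 73 array controls, were left out, and symbols were updated through RefSeq GRCh38.p14 (37380 matched).

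The brightest probe set of each gene was compared between groups with limma 3.58.1 (lmFit, eBayes; R 4.3.3). P-values were adjusted by the Benjamini-Hochberg method across the 15894 genes, or across all probe sets where stated. The number of arrays limits the precision. The test was checked on simulated data. Members and lists were chosen with earlier results of these data known. Values per array are given for members past the threshold with a fold above 1.3 and for CTNNB1, APC, AXIN2, LGR5, RNF43, ZNRF3 and NKD1, and for a probe set of DVL3 chosen after its values were seen. Up to 4 genes with the largest change are named per other list. Alternatives were other scalings, probe set choices, tests and thresholds, a block for the replicate number, and omission of each array in turn.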

Additional observations from a re-analysis of the deposited data

How the results depend on the processing

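The number of members higher in shCIRC, 10 as reported, was 6 when all probe sets of the value table were tested, 5 at an adjusted p under 0.01 and 3 with a fold above 1.3, and it ranged from 5 to 8 when each array was left out. The number lower, 14 as reported, was 4 with a fold above 1.3, 11 with the methods' t-test and 12 to 16 when each array was left out. Of the 24 called members, 15 kept their call and direction in each of the 17 alternatives that could be run for them. The filter on genes above the median brightness left 23 members. These 17 do not include the stricter thresholds. Of the 15, only FZD3, FZD6, WLS, PORCN, BTRC and CD44 also passed a fold above 1.3. Other uses of the probe sets turned the sign of 4 members. With the mean of the probe sets the log2 fold change was -0.20 for LRP6, -0.11 for DVL3, 0.12 for APC and -0.12 for TCF7L2, and with the median over probe sets taken each on its own it was -0.25, -0.17, 0.20 and -0.13. The cause of these changes of sign was not tested. In the mean for DVL3 the probe set with identical values entered as a separate one, unlike in the counts of distinct probe sets. With arrays centred on their median, the median log2 fold change of all genes was 0.020, against -0.0045 as reported.

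With the replicate number as a replicate block, 9 members were higher and 14 lower, and 7433 of all genes were called against 7546. Of those 14, 12 were also lower as reported. LRP5 and AXIN2 lost their call (limma adjusted p = 0.059 for both), and FZD5 and TCF7 gained one (0.047 and 0.048). Deviations of same-numbered arrays correlated with r of 0.066, 0.086 and 0.099, and those of arrays with unlike numbers with r of -0.083 to -0.011. Each array thus correlated best with its own number. Whether the numbers mark pairs was not tested. They are not stated to pair the samples, so the main comparison had no block. With 3 arrays a group, the called members with a log2 fold change of 0.11 to 0.13 (DVL3, GSK3A, GSK3B and TCF7L2) each lost their call without single arrays.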

Other observations

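Receptors and partners of the Wnt branch that acts on cell polarity, outside β-catenin, were also measured. Of 14 measured, 5 were lower (35.7%) and 1 was higher (7.1%) in shCIRC, with a median log2 fold change of -0.089. Over all genes 24.7% were lower and 22.8% higher, and the difference was not tested. PTK7, a receptor-like protein of planar polarity, went from 9.79 ± 0.05 in shEV to 9.05 ± 0.08 in shCIRC (log2, SD, n = 3), a log2 fold change of -0.73 (limma adjusted p = 3.7e-05). VANGL1, a core membrane protein of planar polarity, was lower by 0.71 (adjusted p = 8.2e-05) and CELSR2, an atypical cadherin of the same system, by 0.43 (0.0017). Probe sets ran from -0.73 to -0.10 over the 5 of PTK7, from -0.71 to -0.28 over the 4 of VANGL1 and from -0.70 to -0.43 over the 2 of CELSR2. DAAM1, a formin that Dishevelled recruits, was higher by 0.40 (limma adjusted p = 0.00045) on its 1 probe set. FZD3 and FZD6, the Frizzled receptors best known from this branch, were higher, as given above.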
